A study of Mus musculus with 6 samples.

Results

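S-phase entry cells of the fetal mouse intestine were defined here as the cells richest in transcripts that are made when a cell commits to copying its DNA, and 698 cells of the 9301 that passed the cell filter met the definition, out of 13127 in the deposited matrix. The unit of measurement was the unique molecular identifier (UMI), which counts captured mRNA molecules. Members were chosen by measured values. Cells with at least 1000 detected genes and at most 5% mitochondrial UMIs were scored by the share of their UMIs that came from 9 genes, Mcm2, Mcm3, Mcm4, Mcm5, Mcm6, Pcna, Cdc6, Ung and Ccne2, and the top 8% were taken separately in each of the barcode endings. Cells with more than 2 summed UMIs of the mitotic genes Plk1, Aurka and Ccnb2 were then dropped, which removed 41 of 365 cells in ending A (barcodes ending in _1) and 6 of 380 in ending B (ending in _2). The members came from 4 barcode sets, with 170 cells in A1, 154 in A2, 202 in B1 and 172 in B2, where the digit is the number after the dash in the barcode.

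Before a cell divides, origins of replication are loaded with the MCM helicase by the origin recognition complex, Cdc6 and Cdt1, and cyclin E with Cdk2 then drives the loaded origins to fire. E2F transcription factors, held back by the retinoblastoma protein until cyclin D kinases act, switch on most genes of this machinery together at the border of G1 and S phase. In the growing fetal gut the mesenchyme, which forms the connective tissue and muscle around the epithelium, contains many dividing cells.

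The embryos carried the Pdgfra-H2BGFP allele on a C57/BL6 background, so that a nuclear green fluorescent protein follows the promoter of the receptor gene Pdgfra in every sample. The ages of the small intestines ran from E13.5 (4 replicates, pooled) through E14.5 (3 replicates) to E15.5, E16.5 and E18.5 with 2 replicates apiece, and segments were marked with lipid-bound MULTI-seq barcodes and pooled before capture. Of 6 samples, E15.5 with E16.5 and E13.5 with E14.5 and E18.5 each gave 2 wells of live cells and 1 well enriched for CD31, CD45, Epcam or high PDGFRA-GFP cells. The labels do not tie the 6 barcode sets to samples, so the matrix was treated as 1 sample, ages cannot be separated, and no test was made. All values below are sums over cells, as CPM (counts scaled to a class total of 1000000), and the 95% intervals of ratios and shares cover counting error only.

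The 4 sets differed in depth, with a median of 14298 and 17018 UMIs per S-phase entry cell in A1 and A2 but 5378 and 5278 in B1 and B2. The cells they are compared with, which had no UMI of the proliferation genes Mki67 or Top2a and are called Mki67/Top2a-free cells, were shallower in every set, with medians of 9290, 10139, 3818 and 3772. There were 4190 such cells, which made up 30.2% of kept cells in ending A and 59.3% in ending B. The other kept cells were 1695 mitotic cells, with a Mki67 or Top2a UMI and 3 or more UMIs of Plk1, Aurka and Ccnb2, and 2718 other cycling cells. These limits count raw UMIs and take no account of depth. Mitotic cells were 29.6% of kept cells in ending A (median 16231 UMIs) but 7.29% in ending B (median 6682 UMIs). The part of depth in this difference was not tested. Across the 9495 cells of the 4 sets before the filter, 9 barcodes occurred in 2 sets, and 2 members carried such a barcode. Scrublet called doublets among 0.0958% to 0.674% of the cells of a set and 1 member, so few that doublets may remain.

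The label was checked against the markers Mcm2, Mcm5, Cdc6, Ung and Ccne2, all of which are rule genes, so their levels describe the choice and are no finding. Mcm2, a helicase subunit, stood at 170, 163, 114 and 94.6 CPM in the S-phase entry cells of A1, A2, B1 and B2 and at 55.0, 54.7, 22.2 and 20.6 CPM in the Mki67/Top2a-free cells. Cdc6, the loader of the helicase, stood at 165, 162, 103 and 80.3 CPM against 12.2, 12.8, 2.53 and 2.74 CPM. Ung, the uracil DNA glycosylase, stood at 116, 118, 59.5 and 58.3 CPM against 24.0, 25.0, 9.54 and 8.91 CPM. The members lay above the comparison cells in 4 of 4 sets for each of the 9 rule genes. The mean log2 ratio over the sets was 1.94 for Mcm2, 2.34 for Mcm3, 1.98 for Mcm4, 2.60 for Mcm5, 2.25 for Mcm6, 2.77 for Pcna (the sliding clamp of the replication fork), 4.41 for Cdc6, 2.46 for Ung and 3.74 for Ccne2 (cyclin E2). When a gene was left out of its own score and the class was drawn again, its log2 ratio lay between 1.60 (Mcm2) and 4.07 (Cdc6), and 85.1% to 94.0% of the members were shared. The label names the rule and does not limit members to the start of S phase. Hist1h1b, a linker histone made in S phase and outside the rule, had set means of 544 CPM in members and 27.4 CPM in Mki67/Top2a-free cells.

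**Figure D1:**
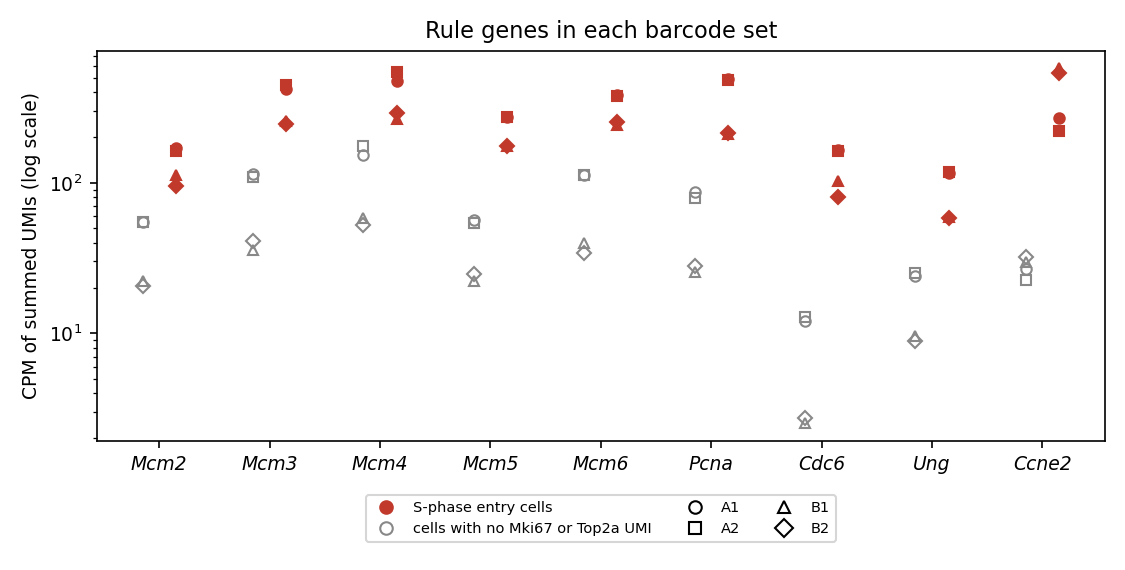
CPM of summed UMIs (log axis) of the 9 rule genes in S-phase entry cells (filled) and in cells with no Mki67 or Top2a UMI (open), 1 symbol per barcode set. Members lie above the comparison cells in all 4 sets, which the rule brings about, and Ccne2 is the rule gene whose member level is higher in B1 and B2 (575 and 537 CPM) than in A1 and A2 (268 and 221 CPM).

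The endings weighed the rule genes differently. Ccne2 gave 9.73% and 7.93% of the rule UMIs of members in A1 and A2 but 28.7% and 27.5% in B1 and B2, while Pcna gave 17.6% and 17.2% against 10.6% and 11.1%. A member held a median of 39 rule UMIs in A1 and 47.5 in A2, with 9 of the 9 genes detected, but 10.5 in B1 and 10 in B2, with 6 and 5 genes detected. A class cut from such a score is a range of cells and not a type. The last cell inside the limit had 23.8 rule UMIs per 10000 in A and 14.2 in B, the 20 cells on either side of it lay between 24.1 and 23.4 in A and between 14.5 and 13.6 in B, and the medians of all kept cells were 6.38 and 2.42. In ending B the 20 cells inside held a median of 7 rule UMIs and the 20 outside a median of 8. After thinning every cell to 2000 UMIs, 23.7% of members (20.6% to 27.1%) had a Cdc6 UMI against 1.03% (0.746% to 1.38%) of Mki67/Top2a-free cells, and before thinning the shares were 60.1% and 3.45%.

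The promoters of rule genes show the kind of sequence that E2F factors are known to bind. The window from 250 bases before to 50 bases after the start, taken from RefSeq (build GRCm38.p6, the mm10 build), was searched on both strands for the words TTTCCCGC, TTTGCCGC, TTTCGCGC and TTTGGCGC. Of the 9 rule genes 7 had an entry, and Mcm3, Mcm5, Mcm6 and Cdc6 held a word, while Mcm2, Pcna and Ung held none in this window. The stretches from 180 bases before the start to 30 bases from it are printed 5′ to 3′ on the gene's strand, with these words in capitals, to show where the words lie. Forward and reverse words can overlap, and the first Mcm6 run in capitals and the Mcm5 run each hold 2 of them.
Mcm5 (chr8:75109329-75109538, plus strand): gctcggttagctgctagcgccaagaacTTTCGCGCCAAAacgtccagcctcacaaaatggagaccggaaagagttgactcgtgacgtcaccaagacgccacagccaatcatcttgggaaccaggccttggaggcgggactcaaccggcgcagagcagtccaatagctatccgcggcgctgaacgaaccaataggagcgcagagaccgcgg
Mcm6 (chr1:128359676-128359885, minus strand): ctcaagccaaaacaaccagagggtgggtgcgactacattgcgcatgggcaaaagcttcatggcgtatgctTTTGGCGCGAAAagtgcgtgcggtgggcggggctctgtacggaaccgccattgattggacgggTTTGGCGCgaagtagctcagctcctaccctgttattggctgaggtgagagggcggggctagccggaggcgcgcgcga
Mcm3 (chr1:20820283-20820492, minus strand): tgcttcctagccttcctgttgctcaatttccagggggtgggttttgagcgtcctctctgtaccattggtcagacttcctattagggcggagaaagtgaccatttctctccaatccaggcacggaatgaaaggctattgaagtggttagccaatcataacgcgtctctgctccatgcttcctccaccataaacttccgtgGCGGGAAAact
Cdc6 (chr11:98907971-98908180, plus strand): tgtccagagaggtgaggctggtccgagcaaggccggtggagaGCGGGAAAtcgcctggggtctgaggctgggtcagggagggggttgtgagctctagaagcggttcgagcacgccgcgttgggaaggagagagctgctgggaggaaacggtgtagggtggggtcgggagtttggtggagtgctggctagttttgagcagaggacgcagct

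Promoters of genes that the rule did not use are printed next, picked because they held one of these words. Among genes higher in S-phase entry cells than in mitotic cells, the 3 with the largest ratio that had at least 50 CPM and a word in the printed stretch were Msh6 (mismatch recognition), Hells (a chromatin remodeller of DNA methylation) and Zfp367 (a zinc finger factor), with log2 ratios of 2.32, 2.22 and 1.97.
Msh6 (chr17:87974870-87975079, plus strand): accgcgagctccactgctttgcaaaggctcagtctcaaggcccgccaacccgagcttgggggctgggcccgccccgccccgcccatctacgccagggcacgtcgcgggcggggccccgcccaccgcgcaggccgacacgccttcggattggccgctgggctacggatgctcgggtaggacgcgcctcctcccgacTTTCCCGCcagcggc
Hells (chr19:38930810-38931019, plus strand): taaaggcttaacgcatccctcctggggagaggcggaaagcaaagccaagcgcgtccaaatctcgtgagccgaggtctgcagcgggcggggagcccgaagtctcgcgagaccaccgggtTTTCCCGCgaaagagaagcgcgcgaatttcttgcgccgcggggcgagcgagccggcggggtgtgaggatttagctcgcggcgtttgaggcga
Zfp367 (chr13:64153170-64153379, minus strand): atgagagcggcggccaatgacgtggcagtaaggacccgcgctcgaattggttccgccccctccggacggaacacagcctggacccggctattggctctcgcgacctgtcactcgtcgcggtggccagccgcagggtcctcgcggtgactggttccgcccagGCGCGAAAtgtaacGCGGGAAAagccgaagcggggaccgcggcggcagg

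Genes of mitosis often carry the word TTTGAA, the core of the cell cycle homology region bound by the DREAM and MuvB complexes. Cenpa (the centromeric histone H3) and Cdkn3 (a cycle phosphatase) had the smallest ratios of members to mitotic cells among genes at 50 CPM or more with this word in the stretch, at -4.57 and -4.44, and the capitals mark TTTGAA on either strand.
Cenpa (chr5:30666706-30666915, plus strand): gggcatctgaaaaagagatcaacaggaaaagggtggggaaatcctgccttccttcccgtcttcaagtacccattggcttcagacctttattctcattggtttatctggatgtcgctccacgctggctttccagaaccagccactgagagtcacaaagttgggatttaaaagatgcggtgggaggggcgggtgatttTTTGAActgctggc
Cdkn3 (chr14:46760361-46760570, plus strand): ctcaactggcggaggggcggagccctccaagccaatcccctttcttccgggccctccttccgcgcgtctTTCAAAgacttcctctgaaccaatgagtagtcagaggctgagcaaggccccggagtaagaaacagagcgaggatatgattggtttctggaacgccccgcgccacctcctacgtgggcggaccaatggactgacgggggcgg

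The share of genes with an E2F word was 2.61% of 27025 genes with a promoter entry and 5.84% of those tested against mitotic cells. It was 28.7% (37 of 129) among genes higher in members than in mitotic cells and 5.65% (7 of 124) among genes lower in members. The word TTTGAA stood in 10.9% of the former, 54.8% (68 of 124) of the latter, 14.3% of the promoters tested and 20.2% of all promoters. Of the genes higher than in Mki67/Top2a-free cells, 26.0% held it, against 13.7% of those tested in that comparison. By list, an E2F word stood in 7 of 17 promoters of origin genes and 10 of 24 of fork genes, in 0 of 15 of nucleotide genes, 4 of 15 of chromatin genes, 5 of 20 of repair genes, 8 of 23 of G1 and S regulators, 4 of 14 of ribosome biogenesis and Myc genes and 3 of 38 of G2 and mitosis genes. The members were picked by replication genes and the mitotic cells by mitotic genes, so these shares describe that choice and test nothing. A match describes letters in a window, and no binding was measured.

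In the comparison with Mki67/Top2a-free cells, 490 of 6590 genes outside the rule with at least 20 CPM in 1 class (7.44%) were higher by 1.5-fold or more in 4 of 4 sets and 108 (1.64%) were lower. Such genes are called higher or lower below, and the median log2 ratio of all 6590 genes was -0.03. The rule itself sets this contrast, so counts within it describe the class. Of 85 replication genes outside the rule, 81 reached the level, and 73 were higher, 0 lower and 8 neither, with a median log2 ratio of 1.92. Their summed level was 15548 CPM in members, 4565 CPM in Mki67/Top2a-free cells, 9613 CPM in other cycling cells and 9518 CPM in mitotic cells.

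Of the genes that load and fire origins, 16 of 19 were higher and 0 lower, with a median of 2.18. Mcm7, the helicase subunit outside the rule, stood at 464, 459, 936 and 892 CPM in members of A1, A2, B1 and B2 against 122, 122, 182 and 166 CPM, a mean log2 ratio of 2.15 (2.09 to 2.22). Cdt1, the other helicase loader, stood at 101, 99.3, 79.3 and 72.6 CPM against 26.5, 25.8, 11.1 and 12.5 CPM, a ratio of 2.31 (2.11 to 2.51). Gmnn, the geminin that blocks Cdt1 once S phase is under way, had 2.93 (2.81 to 3.06), with 246 CPM against 33.2 CPM as means of the sets. Both the loader and its inhibitor were above the comparison cells in 4 of 4 sets. Mcm10 and Cdc45, which join the helicase when origins fire, had 4.35 and 3.72. The origin recognition subunits Orc4 and Orc3 had the smallest ratios, 0.17 (-0.06 to 0.40) and 0.25 (0.06 to 0.44).

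Of 29 fork genes 28 were higher and 0 lower, with a median of 1.95. Pclaf, a partner of the sliding clamp, had the largest ratio, 4.68 (4.59 to 4.77), with 1010.4, 1058, 1418 and 1447 CPM against 45.3, 46.2, 50.2 and 48.3 CPM. Clspn (claspin, the checkpoint mediator at the fork) had 4.00 and Dscc1 (a clamp loader subunit) 3.53. Lig1, the ligase that joins Okazaki fragments, stood at 480, 525, 1374 and 1211 CPM against 85.2, 96.3, 162 and 157 CPM, a ratio of 2.74 (2.68 to 2.81). Its level was higher in both B sets than in both A sets, in members and in comparison cells alike. Pole4, a small subunit of polymerase epsilon, was the fork gene that passed in neither direction, at 0.52.

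Nucleotide supply gave 14 higher of 16 and 0 lower, with a median of 1.69. The largest ratios were those of Tk1 (thymidine kinase, 4.25) and Rrm2 (the ribonucleotide reductase subunit made in S phase, 3.90). Cad and Gart, enzymes of pyrimidine and purine synthesis, had 0.54 and 0.72 and were called in neither direction. Chromatin assembly and maintenance methylation gave 15 higher of 17 and 0 lower, with a median of 1.62. Asf1b (a histone chaperone) had 3.77, Uhrf1 (which brings Dnmt1 to newly copied DNA) 3.08 and Chaf1b (of the chromatin assembly factor) 2.80, while Rbbp7 had 0.43 and Asf1a 0.52. DNA repair and checkpoint genes gave 18 higher of 21 and 0 lower, with a median of 2.46, with high ratios for Brca1 (4.38), Brip1 (4.21) and Exo1 (4.18), which act in homologous recombination and end resection. Atr (0.53), the fork stress kinase, and its partner Atrip (0.34) had the smallest ratios there.

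The score grades cells, and genes outside it were graded with it. In ending A the replication genes outside the rule made up 168, 159, 130, 88.6 and 58.7 UMIs per 10000 in cells ranked in the top 8%, 8 to 16%, 16 to 32%, 32 to 64% and 64 to 100% by score, the top bin with the later dropped cells included. In ending B the values were 146, 112, 72.1, 51.1 and 37.5. DNA repair genes went from 20.3 to 5.51 in A and from 13.0 to 2.83 in B over the same bins, and ribosome biogenesis genes from 65.0 to 40.3 and from 42.4 to 27.6. Genes of G2 and mitosis went up in A, from 36.6 to 72.7, and had no single direction in B. The median depth of the bins also went down, from 15744 to 9571 UMIs in A and from 5330 to 3624 in B, and its part in these values was not tested.

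**Figure D2:**
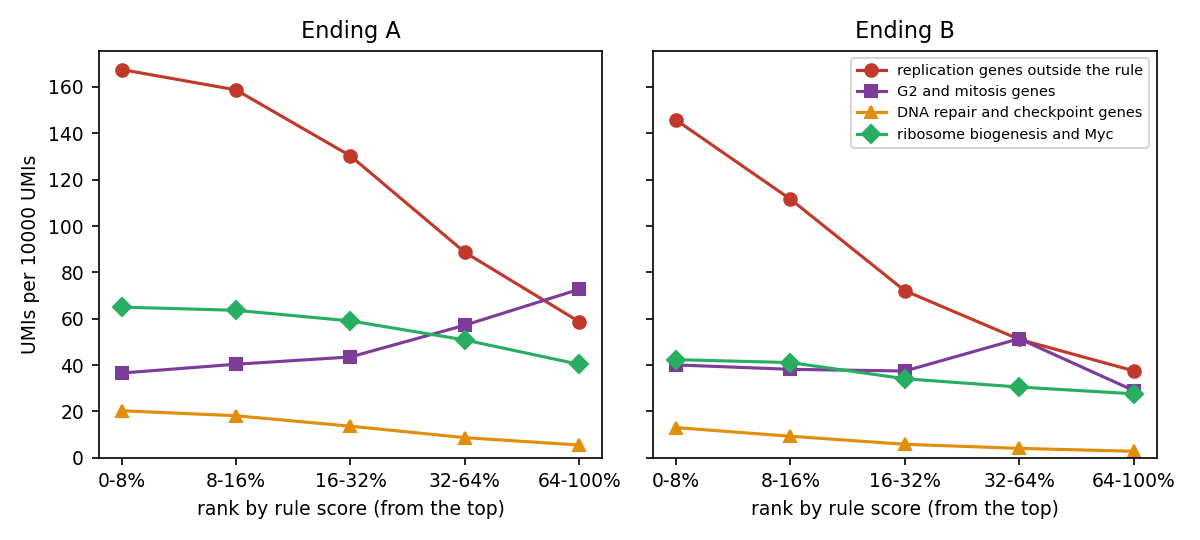
UMIs per 10000 UMIs of 4 gene lists outside the rule (y axis) in cells ranked by the rule score from the top (x axis), ending A left and ending B right. Replication genes drop from 168 to 58.7 in A and from 146 to 37.5 in B, with no step at the 8% limit in A (168 and 159).

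The regulators of G1 and S split into groups. Of 24 tested, 13 were higher, 0 lower and 11 neither, with a median of 1.06. Ccne1, cyclin E1, which the rule did not use, stood at 157, 165, 121 and 109.98 CPM in members and at 44.6, 47.4, 23.6 and 23.1 CPM in Mki67/Top2a-free cells, a log2 ratio of 2.06 (1.91 to 2.20). E2f1, an activating E2F, stood at 80.3, 92.2, 85.6 and 82.5 CPM against 21.7, 21.6, 15.4 and 17.1 CPM, a ratio of 2.18 (1.99 to 2.37). Members were above the other classes for both genes in 4 of 4 sets. The repressor E2Fs made in S phase, E2f7 and E2f8, had 4.24 and 3.55, and Fbxo5 (Emi1, which restrains the anaphase-promoting complex) had 4.26 (3.98 to 4.54).

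D-type cyclins, which couple growth signals to the retinoblastoma protein, did not follow cyclin E. Ccnd1 stood at 195, 194, 51.4 and 58.3 CPM in members against 118, 115, 40.7 and 32.6 CPM, a ratio of 0.66 (0.50 to 0.83) that passed 1.5-fold in some sets but not in all. Ccnd2 stood at 1146, 1197, 897 and 941 CPM against 1225, 1201, 1290 and 1285 CPM, and Ccnd3 at 279, 270.1, 214 and 191 CPM against 305, 330.5, 234 and 207 CPM. The ratios were -0.27 for Ccnd2 and -0.16 for Ccnd3. Against mitotic cells, Ccnd1 (1.61) and Ccnd2 (1.02) were higher in members. Of the cycle inhibitors, Cdkn1b (p27) stood at 52.0, 56.1, 34.2 and 28.6 CPM against 73.7, 76.6, 53.0 and 55.5 CPM, a ratio of -0.63 (-0.85 to -0.42), lower in 4 of 4 sets but by less than 1.5-fold in some. Cdkn1c (p57) had -0.40 (-0.45 to -0.35), with 717 CPM against 930.5 CPM, and Cdkn1a (p21) was near 5 CPM in members (4.86) and in the comparison cells (4.62).

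**Figure D3:**
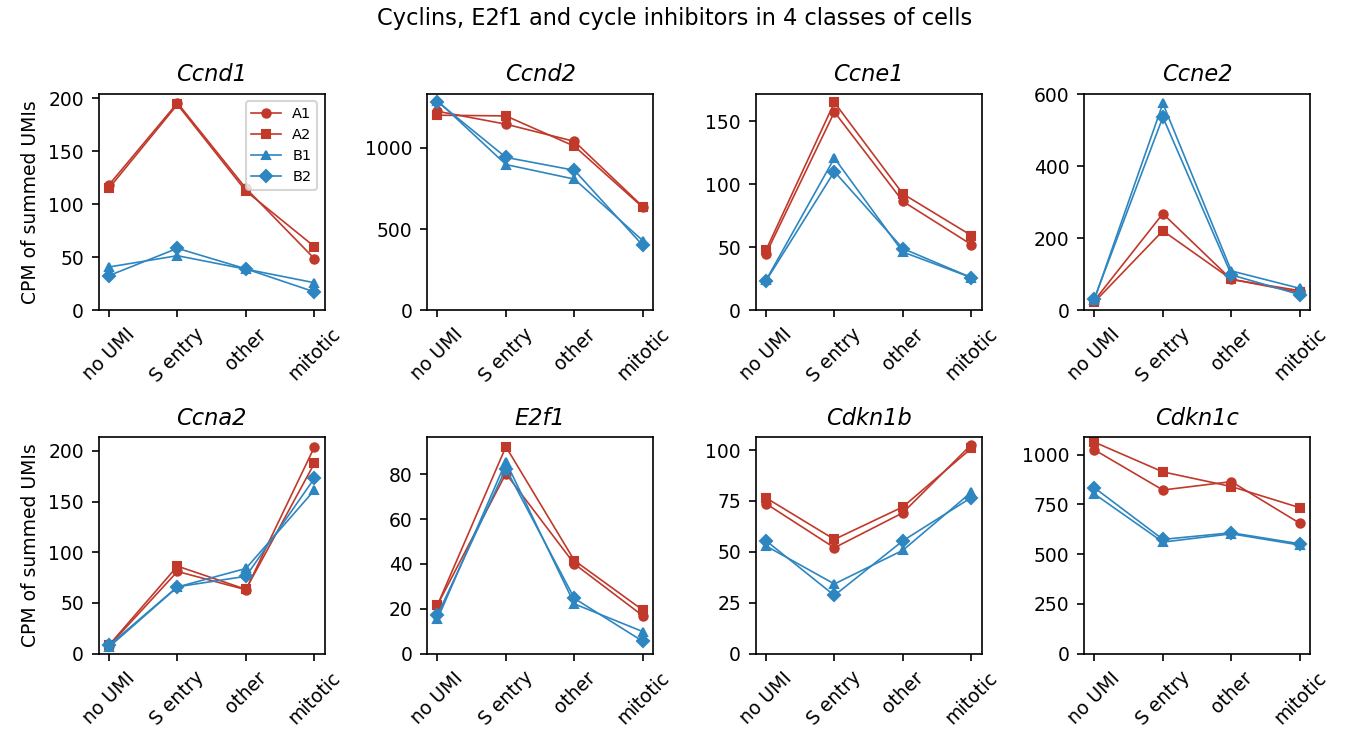
CPM of summed UMIs (y axes from 0) of 8 cycle regulators in Mki67/Top2a-free, S-phase entry, other cycling and mitotic cells (x axis), 1 line per barcode set, ending A red and ending B blue. Ccne1 and E2f1 peak in S-phase entry cells in all 4 sets (means 138 and 85.1 CPM), Ccna2 is highest in mitotic cells (181 CPM) and Cdkn1b is lowest in S-phase entry cells (42.7 CPM).

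Ratios are on the CPM scale, and the scale matters for genes with small ratios. Without scaling to the total, as UMIs per cell, the median of all genes moved to 0.51, 1478 genes were higher and 19 lower, and 98.7% of calls were higher, against 81.9% with CPM. The summed ratios of the Hedgehog, growth factor, immediate early and smooth muscle lists, which are negative on the CPM scale, were positive per cell as means of the sets. Of the regulators above, Ccnd2 (0.28), Ccnd3 (0.38) and Cdkn1c (0.15) were positive per cell and Cdkn1b was -0.09. Of the 132 genes of the naming rule, 29 had a negative ratio in CPM and a positive one per cell, and each of the genes called lower that are named below was negative on both scales.

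Genes of ribosome biogenesis and Myc, a program of cell growth, gave 5 higher of 16, 0 lower and 11 neither, with a median of 0.58. Nop56 and Nolc1, nucleolar proteins, had 1.10 and 1.00, while Ncl (nucleolin) had 0.62, Npm1 (nucleophosmin) 0.33, Mycn 0.65 and Myc 0.18 (-0.18 to 0.53). Of 8 Hedgehog response genes, 10 growth factor ligands and receptors and 10 immediate early genes, none was called in either direction, with medians of -0.34, -0.15 and -0.44. Of all 6590 genes tested, 7.44% were higher and 1.64% lower, so an absence of calls in lists this short says little. Ptch1, the Hedgehog receptor and target, had -0.46 (0.09 per cell) and Gli1 -0.02. Per cell the summed ratios of these 3 lists were 0.20, 0.36 and 0.10. Fos, an immediate early gene that tissue dissociation is known to induce, had -0.61, with 482 and 461 CPM in members against 1028 and 1030 CPM in A1 and A2 but 652 and 628 CPM against 677 and 688 CPM in B1 and B2.

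Genes of G2 and mitosis separated S-phase entry from mitosis by degree. Of 45 genes 35 reached the level against Mki67/Top2a-free cells, and 33 were higher, 0 lower and 2 neither, with a median of 2.61. The comparison cells lack Mki67 and Top2a by definition, and the summed level of the list was 827 CPM in them, 3710 CPM in S-phase entry cells, 4449 CPM in other cycling cells and 12780 CPM in mitotic cells. Ccna2, cyclin A, which acts in S phase and in G2, stood at 81.1, 86.4, 65.8 and 66.0 CPM in members, 7.65, 8.30, 6.42 and 8.05 CPM in Mki67/Top2a-free cells and 204, 188, 161 and 173 CPM in mitotic cells. Aurkb (4.15), Ttk (4.04), Ncapg (3.97) and Ndc80 (3.85), genes of the spindle checkpoint, condensin and the kinetochore, had the largest ratios to Mki67/Top2a-free cells. Cenpa had -0.82 and Pttg1 (securin) -0.33.

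Against mitotic cells, 161 of 6468 genes (2.49%) were higher in S-phase entry cells by 1.5-fold in 4 of 4 sets and 153 (2.37%) were lower. The mitotic cells were picked for 3 or more UMIs of Plk1, Aurka and Ccnb2, and the rule dropped members with more than 2. The low level of mitosis genes in members, and the other counts here, therefore describe this choice of cells. Of 81 replication genes outside the rule, 51 were higher, 1 lower and 29 neither, with a median of 1.02, against -0.03 for all genes tested. The lower gene was Dbf4, the partner of the kinase Cdc7, with a ratio of -1.39 (-1.56 to -1.23), at 67.1 CPM in members and 179 CPM in mitotic cells, although it was higher than in Mki67/Top2a-free cells (13.4 CPM). Among the largest ratios outside the rule were E2f1 at 2.88 (2.51 to 3.26), Slfn9 at 2.75, Chaf1b at 2.47, Dscc1 at 2.43, Msh6 at 2.32, Hells at 2.22 and Cdt1 at 2.11. Pclaf, the fork gene with the largest ratio to Mki67/Top2a-free cells, had 0.90 here.

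Of the 45 G2 and mitosis genes 0 were higher and 41 lower than in mitotic cells. Cenpa had 25.0, 25.1, 18.9 and 22.0 CPM in members against 446, 444, 666 and 637 CPM in mitotic cells. Cdc20 (an activator of the anaphase-promoting complex), Ube2c (its ubiquitin-conjugating enzyme), Cenpf (a kinetochore protein) and Ccnb1 (cyclin B1) had -3.87, -3.81, -3.69 and -3.35. The genes called in neither direction were Sgo1 (-0.91), Pttg1 (-0.70), Mad2l1 (-0.64) and Smc2 (-0.32). Of the regulators, Fbxo5 (-0.20) was at a like level in both classes, whereas Cdkn1b (-1.12), Cdkn2c (-1.90) and Cdkn2d (-1.37), cycle inhibitors, were lower in members.

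**Figure D4:**
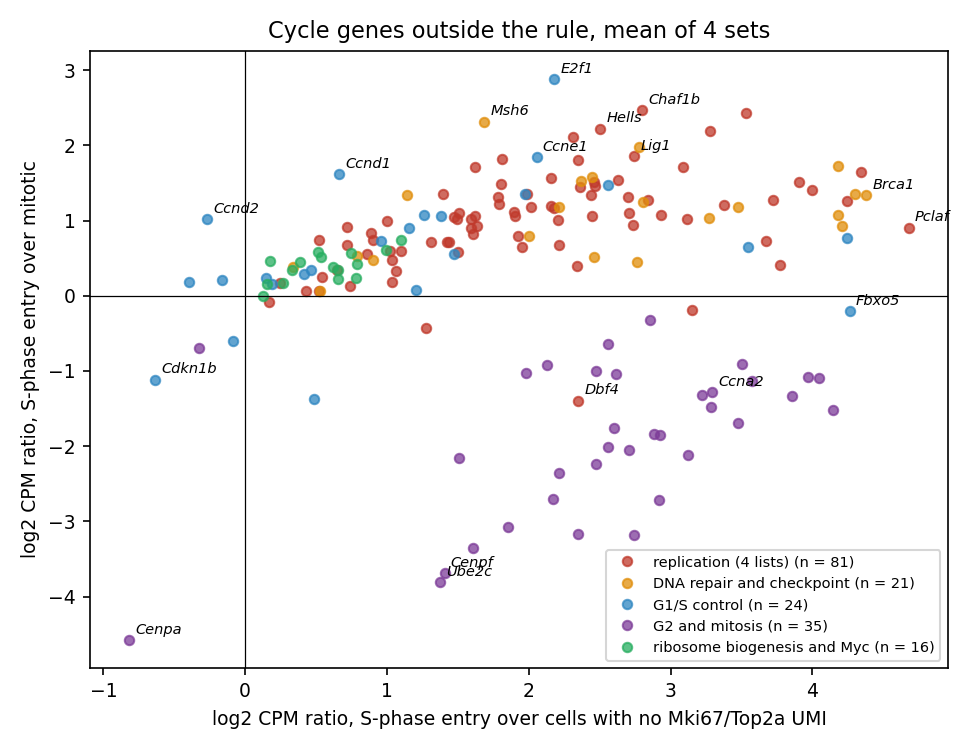
Mean log2 CPM ratio over 4 sets of S-phase entry cells to Mki67/Top2a-free cells (x axis) and to mitotic cells (y axis), 1 point per gene outside the rule, coloured by list. Most genes of replication lie above 0 on both axes (51 of 81 are higher by the y axis), the G2 and mitosis genes lie below 0 on the y axis, and E2f1 (2.88) is the highest point.

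Mki67 and Top2a, which were not used to choose members, were detected in 69.2% (65.6% to 72.6%) of S-phase entry cells at 2000 UMIs per cell, with 3 members and 23 others too shallow to enter. The shares by set were 63.5%, 66.9%, 75.7% and 69.2%, against 36.2% (35.2% to 37.3%) of all other kept cells and 23.8% of others without the mitotic cells. Unthinned, the shares were 90.0% and 51.3%. Within the members, the 481 cells with such a UMI at that depth and the 214 without had a log2 ratio of rule UMIs of -0.04 (-0.15 to 0.07) when pooled over the sets, positive in 3 of 4 sets. Before thinning only 70 of the 698 members lacked such a UMI, so most of the 214 had one that thinning removed. The groups were split on proliferation genes, so their differences in cycle genes describe the split. Summed over the sets, the cells with the UMI had more Hist1h1b (a linker histone made in S phase, 1.14), Ccna2 (1.20), Pclaf (0.99), Tk1 (0.78), Rrm2 (0.58) and Ccne2 (0.46), each in 4 of 4 sets. These ratios pool sets that differ in level, so they can differ from ratios within a set. In A1, A2, B1 and B2, Hist1h1b had 3.39, 6.86, 0.51 and 0.58 UMIs per 10000 in cells without the UMI. In cells with it, the values were 9.58, 11.3, 3.37 and 2.82. The replication list outside the rule differed by 0.29 (0.25 to 0.34) and the G2 and mitosis list by 0.94 (0.84 to 1.04). Cdc6 went the other way in 4 of 4 sets, at -0.31, but its interval (-0.75 to 0.14) took in 0, as did those of Ung (-0.48), Ccne1 (-0.13) and Cdkn1c (0.00). By set, Ccne1 was higher with the UMI in 3 of 4 sets and Ung and Cdkn1c in 2 of 4.

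Beyond the lists, the 12 genes with the largest ratios to Mki67/Top2a-free cells at 50 CPM or more were led by Esco2. Esco2, which acetylates cohesin as DNA is copied, had the largest, 4.94 (4.53 to 5.36), with 69.6, 66.0, 73.0 and 68.2 CPM against 2.46, 2.04, 1.75 and 2.91 CPM. The histone genes Hist1h2ap (4.68), Hist1h1b (4.60), Hist1h1a (4.22), Hist1h2ae (4.19) and Hist1h1d (3.65) were among them. Hist1h2ap and Hist1h2ae are near-identical copies among which reads can be split, so their levels are uncertain. In members of A1, A2, B1 and B2, Hist1h2ap stood at 711, 80.1, 18.9 and 24.2 CPM and Hist1h2ae at 444, 178, 627 and 739 CPM. The cause of these differences between sets was not tested. The others were Pbk (a mitotic kinase, 4.47), Slfn9 (4.05), Kif15 (a spindle motor, 3.75), Ncapg2 (of condensin II, 3.66), Zfp367 (3.55) and Cenph (of the kinetochore, 3.51). Slfn9 stood at 210.1, 206, 147 and 140 CPM in members, 21.6, 15.0, 4.48 and 8.05 CPM in Mki67/Top2a-free cells and 47.4, 43.2, 15.1 and 14.1 CPM in mitotic cells. Of these 12 genes only Slfn9, Ncapg2, Zfp367 and Cenph were also higher than in mitotic cells, and Kif15 was lower (-1.07). The others were called in neither direction there and had negative mean ratios, such as Esco2 (-0.24) and Hist1h1b (-0.41). As means of the sets, Esco2 stood at 69.2 CPM in members, 53.0 CPM in other cycling cells and 81.7 CPM in mitotic cells.

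The 12 with the smallest ratios were Mgst1 (-1.94), Lmo3 (-1.84), Col4a5 (-1.75), Slc12a2 (-1.61), Spon2 (-1.51), Adamdec1 (-1.40), Kdm5b (-1.39), Abi3bp (-1.38), Kdm7a (-1.36), Col6a4 (-1.33), Bpgm (-1.27) and Cebpd (-1.27). Lmo3, Spon2, Abi3bp and Bpgm did not reach 1.5-fold in all 4 sets and are not called. Spon2 had -2.57 and -2.85 in A1 and A2 but -0.36 and -0.27 in B1 and B2, and Abi3bp had -1.94 and -2.32 but -0.49 and -0.79. Among those called lower were the collagen chains Col4a5 and Col6a4 and the histone demethylases Kdm5b and Kdm7a. Adamdec1, a metalloprotease of gut mesenchyme, stood at 492, 444, 1403 and 1109 CPM in members against 1481, 1525, 2692 and 2694 CPM in Mki67/Top2a-free cells, with 974 CPM as the mean in mitotic cells. Cebpd, a transcription factor, stood at 94.6, 78.1, 180.2 and 185 CPM against 326, 298, 292 and 291 CPM. Against mitotic cells only Kdm5b of these 12 was lower in members (-0.80).

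As a class, the members held mesenchymal transcripts. The rule had no filter for mesenchyme, and the class sums below do not show that each member was mesenchymal. Col1a1, the fibrillar collagen chain, stood at 1097, 1022, 2426 and 2848 CPM in members of A1, A2, B1 and B2 and at 2664, 2451, 2537 and 2893 CPM in Mki67/Top2a-free cells. In ending A members lay well below the comparison cells and in ending B the classes were close. Of 11 general mesenchyme genes 0 were called in either direction, with a median of -0.50, of 7 genes of PDGFRA-high mesenchyme 1 was lower, and of 9 matrix fibroblast genes 1 was lower. Those genes were Bmp2, a ligand of PDGFRA-high cells, at -2.23 (6.14, 3.53, 21.6 and 23.1 CPM against 31.3, 27.1, 74.2 and 84.5 CPM), and Ogn (osteoglycin), at -1.44. Of all 6590 genes tested, 7.44% were higher and 1.64% lower, so counts in lists this short say little. A ratio of summed transcripts cannot separate fewer cells of a kind in the class from less RNA per cell. Against mitotic cells none of the genes of these 3 lists was called, and Col1a1 (0.05), Col3a1 (0.05) and Dcn (0.08) had ratios near 0.

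The endings differed in which mesenchymal genes were low. The matrix fibroblast list had summed ratios of -1.53 and -1.45 in A1 and A2 but -0.03 and 0.06 in B1 and B2. Pdgfra went the other way, with 138 and 119 CPM in members against 207 and 140 CPM in A1 and A2, and 49.5 and 36.3 CPM against 143 and 146 CPM in B1 and B2. Bmp5, another ligand of PDGFRA-high cells, stood at 44.2 and 42.4 CPM against 39.7 and 41.2 CPM in A but at 8.11 and 8.80 CPM against 39.7 and 37.4 CPM in B. Per cell, the matrix list gave -0.94 in the lowest set and 0.51 in the highest. Ages, wells, gene annotation, depth and the make-up of the comparison class cannot be told apart from the endings.

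**Figure D5:**
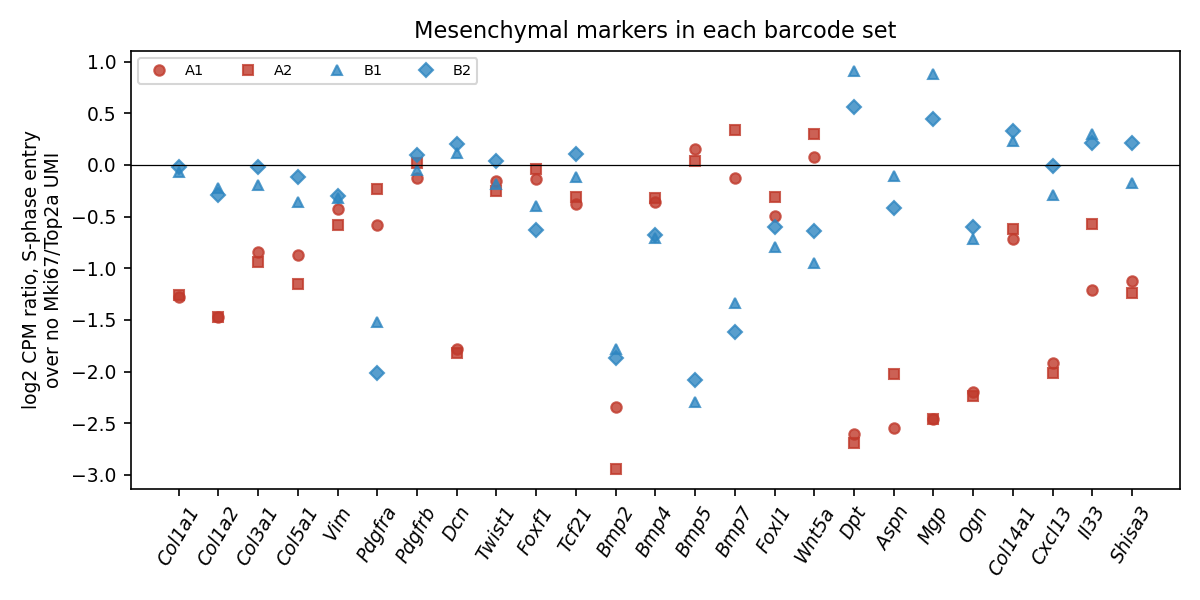
Log2 CPM ratio of S-phase entry to Mki67/Top2a-free cells (y axis) for the tested genes of the general mesenchyme, PDGFRA-high and matrix fibroblast lists (x axis), 1 symbol per barcode set, ending A red and ending B blue. Bmp2 lies below 0 in all 4 sets (mean -2.23), Dcn, Dpt and Mgp lie below 0 in A and above it in B, and Pdgfra is lower in B than in A.

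None of the genes of the mesothelium (5 genes), endothelium (6), blood (6) and epithelium (7) lists reached 20 CPM as a mean over the sets in members or in Mki67/Top2a-free cells, and their summed levels by set were 3.30 to 9.42, 6.14 to 18.9, 9.42 to 105 and 24.2 to 41.4 CPM in members against 7.20 to 14.1, 9.42 to 17.9, 15.4 to 34.7 and 44.2 to 56.2 CPM in Mki67/Top2a-free cells. The highest blood sum came from B1, where Lyz2 stood at 55.9 CPM. No gene of these lists was at 0 in the members as a whole. Glial genes summed to 166 to 201 CPM against 250.5 to 558 CPM, most of it Ednrb (-1.14, called lower), while Sox10 was at 2.19 CPM. Ednrb was detected in 58.9%, 59.4%, 54.1% and 54.1% of Mki67/Top2a-free cells of A1, A2, B1 and B2. Its level therefore does not mark glia alone here. Smooth muscle genes gave 0 called of 9, with sums of 1304 to 1881 against 1616 to 2259 CPM. Pericyte genes gave 0 called of 5, with 204 to 355 against 180.3 to 388 CPM. Erythroid genes summed to 38.5 to 868 CPM in members and 52.1 to 2367 CPM in comparison cells, with 1 of 4 lower (Hba-a1), and the part of any of these in the results was not tested. Over all 6590 genes tested, 7.44% were higher and 1.64% lower, so counts of calls in lists this short say little. When only cells with at least 2 UMIs of Col1a1 and Col3a1 were kept, 482 genes were higher and 101 lower.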

How the data were processed

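Single-cell RNA sequencing libraries were made with the 10x Chromium 3′ kit V3, per the labels' protocols. The authors deposited raw UMI counts per gene and cell, pooled over 6 samples, and Cell Ranger 2.1.1, Seurat and mm10 are named per the submitters' processing notes. The annotation and the authors' filter on cells were not given in the sources used here. The endings use different gene symbols, so 172 pairs of older and newer symbols were summed through the RefSeq gene table. Of 9495 cells in the 4 sets used, 56 had under 1000 genes and 147 over 5% mitochondrial UMIs, counted separately.

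UMIs were summed per class within each set and scaled to CPM. Log2 ratios are means of 4 sets with equal weight, a count of 0 was set to 3 counts, and 95% intervals come from the counting variance for means of sets, are exact conditional binomial for pooled or single-set ratios and Clopper-Pearson for shares. A gene was tested with at least 20 CPM in 1 class and counts in both endings. No p-value was computed, because cells are not replicates. The members and the lists were chosen with earlier results of these data known. Genes named were the rule genes, the listed genes of at least 20 CPM with the largest and smallest ratios, 11 cycle regulators, and the 12 largest and 12 smallest ratios beyond the lists at 50 CPM or more. Largest ratios to mitotic cells, genes named from the marker lists, and further listed genes such as Mcm7, Lig1, Fos, Ncl, Npm1 and Mycn were picked after their values were seen. Counts over the 132 genes of the naming rule cover neither these further genes nor the rule genes. A few listed genes are not reported here. The ratio step was also run on simulated counts drawn from a shared profile at the class totals. These counts held no variation among cells or sets and no choice of cells by score, so that run covers counting error only. Thinning drew 2000 UMIs per cell. Python 3.11.15, numpy 2.4.6, scipy 1.17.1, pandas 2.3.3 and scanpy 1.11.5 (Scrublet) were used. Alternatives were other score limits, filters, comparison cells, scalings and sets.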

Additional observations from a re-analysis of the deposited data

Results flagged for a closer look

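The log2 ratio of S-phase entry to Mki67/Top2a-free cells had opposite signs in the endings for 7 listed genes, each time in 2 of 2 sets per ending and with a pooled counting interval clear of 0 in each ending. Listed genes of at least 20 CPM were looked at, and others, such as Igf1, had opposite signs with an interval that took in 0. The means over A1 and A2 and over B1 and B2 were -1.80 and 0.16 for Dcn (decorin), -2.65 and 0.74 for Dpt (dermatopontin), -2.46 and 0.66 for Mgp (matrix Gla protein), -0.67 and 0.28 for Col14a1, -0.28 and 0.34 for Kcnj8 (a pericyte potassium channel), 0.19 and -0.79 for Wnt5a and 0.22 and -0.91 for Synpo2 (synaptopodin 2). The difference between endings was not tested, and ages, wells, annotation, depth and the make-up of the comparison class cannot be told apart from it.

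The barcode sets with the digit 3 were outside the definition. With the score limits of their endings, 10 of 1185 kept cells of A3 (0.844%, 0.405% to 1.55%) and 28 of 2202 of B3 (1.27%, 0.847% to 1.83%) passed. Their replication genes outside the rule had log2 ratios of 2.37 (2.30 to 2.44) and 2.47 (2.41 to 2.53) to the Mki67/Top2a-free cells of the same set. In these sets Pdgfra was at 259 CPM against 1109 CPM in A3 and at 154 CPM against 425 CPM in B3, and Cdkn1c at 576 CPM against 1889 CPM and at 803 CPM against 1543 CPM. The difference from the other sets was not tested.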

How the results depend on the processing

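The summed log2 ratio of replication genes outside the rule (1.79) stayed positive under every alternative run. It was 1.83 with the top 5% of cells, 1.75 with the top 12%, 1.63 from the A sets, 1.95 from the B sets, 1.07 against all other kept cells, 1.68 with all cells thinned to 2000 UMIs, 1.86 as the mean of per-cell CPM, 2.33 per cell without scaling, 1.73 against comparison cells of nearer depth (an alternative chosen after seeing the data) and 1.73 to 1.84 with 1 set left out. The G2 and mitosis list (2.16) gave 2.21 with mitotic cells kept, 2.08 in A, 2.25 in B, 1.71 thinned, 2.71 per cell, 2.12 to 2.20 with 1 set left out and -0.37 against all other kept cells, which include the mitotic cells. Aurkb (-0.13) and Ube2c (-2.08) turned there too. Genes higher (490) numbered 192 against all other kept cells, 1478 per cell, 282 at 50 CPM and 291 at 2-fold. Genes lower (108) numbered 54, 19, 48 and 28 under these, 434 in A, 341 in B, 262 with no CPM minimum and 144 to 166 with 1 set left out, the most without B1. The share with a Mki67 or Top2a UMI (69.2%) was 73.3% in the top 5%, 65.1% in A, 72.8% in B, 51.9% at 1000 UMIs, 77.7% at 3000 and 90.0% unthinned. Of 2376 values of the 132 genes of the naming rule under the alternatives, 1839 moved by no more than their counting interval. Among these genes that were called higher or lower, only the values of Aurkb and Ube2c given above changed sign. Genes that were not called could change sign too, as 29 did per cell. The cause of these shifts was not tested. Ending B held a median of about 10 rule UMIs per member, which limits how sharply its members are set apart. No paired analysis was possible because no label ties the barcode sets to a replicate number. Ratios between classes were taken within a set, with no test. Ratios between members with and without a Mki67 or Top2a UMI were pooled over the sets.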
